A study of Homo sapiens with 6 samples.

Results

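The DNA replication machinery and the enzymes of deoxynucleotide (dNTP) synthesis were followed as a set of 43 genes in H146 cells depleted of *KIFC1*, a kinesin motor that clusters centrosomes in mitosis. The genes were chosen by symbol as components of origin licensing, the replicative helicase, the DNA polymerases, the sliding clamp and its loader, Okazaki fragment maturation, and dNTP synthesis. The choice also described them as E2F-driven S phase genes. All 43 were found among the 28395 genes of the count table, and all 43 were among the 14776 genes with enough counts to be tested. NCI-H146 (H146; NIH-H146 in the sample titles) is an established human small-cell lung cancer line. Its genotype was given as WT in the 3 control libraries, made after transfection of a negative control siRNA, and as KIFC1 knockdown in the 3 libraries made after transfection of KIFC1 siRNA (siKIFC1). RNA was taken on day 2, 48 hours after transfection. The sample titles do not say which of the study's siRNAs against *KIFC1* was used. The cells were transiently transfected pools of 1 cell line.

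Total counts ran from 15392374 to 17754458 per library, and the 43 genes took from 0.516% to 0.562% of them, with single-gene counts between 270 (*GINS3*) and 6959 (*RRM2*). *KIFC1* itself had 14, 4 and 14 counts in control replicates 1 to 3 and 1, 1 and 0 counts in siKIFC1 replicates 1 to 3, too few to be tested. The mitochondrial share ran from 8.34% to 13.1%. The siKIFC1 libraries differed from each other more than the control libraries did, with a chi-square per degree of freedom over all genes of 21.3 (replicates 1 and 2), 22.2 (1 and 3) and 34.7 (2 and 3), against 5.96 to 19.3 between control libraries. The 10 neuroendocrine markers were all above 3 counts, at a summed 3434 to 3877 CPM (counts scaled to a library's total) in control and 3622 to 4147 in siKIFC1 libraries. Of 6 fibroblast markers 4 were above 3 counts, with sums of 11.6 to 17.1 and 12.2 to 14.9 CPM, and of 5 endothelial markers 3 were, with sums of 3.92 to 4.88 and 5.39 to 5.94 CPM. Of 6 leukocyte markers 4 were, with sums of 5.45 to 7.14 and 7.04 to 10.2 CPM, and *LST1* was at 0 in all 6 libraries. The endothelial and leukocyte sums were thus low in every library, and the endothelial sums did not overlap between groups. Their part in the results was not tested.

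Replication begins in G1, when the origin recognition complex binds DNA and, with CDC6 and CDT1, loads the MCM helicase, a step that geminin (*GMNN*) restrains after S phase has begun. The kinase CDC7-DBF4, CDC45 and the GINS complex then activate the helicase, polymerase α-primase lays down primers, and polymerases δ and ε extend them behind the PCNA clamp, which the RFC complex loads. Ribonucleotide reductase and thymidylate synthase supply the dNTPs. Many of these genes are known targets of E2F transcription factors, which are released when RB is inactivated, and loss of RB is a hallmark of small-cell lung cancer.

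The promoters of 4 of the genes are shown because they span the range of the measurements. *ORC1* had the largest negative fold change of the set, *CDC6* was lower in each siKIFC1 library, *RFC3* had the largest positive fold change, and *MCM6*, whose promoter holds the most matches of these 4, had one near 0. Each runs 5′ to 3′ from 250 bases before to 50 bases after the RefSeq start on GRCh38.p14, and capitals mark matches to the 8-letter E2F-type words TTTCCCGC, TTTGGCGC, TTTCGCGC and TTTGCCGC, read on both strands. They are chr1:52404374-52404673 (minus strand) for *ORC1*, chr17:40287629-40287928 (plus strand) for *CDC6*, chr13:33817899-33818198 (plus strand) for *RFC3* and chr2:135876394-135876693 (minus strand) for *MCM6*.
*ORC1* promoter: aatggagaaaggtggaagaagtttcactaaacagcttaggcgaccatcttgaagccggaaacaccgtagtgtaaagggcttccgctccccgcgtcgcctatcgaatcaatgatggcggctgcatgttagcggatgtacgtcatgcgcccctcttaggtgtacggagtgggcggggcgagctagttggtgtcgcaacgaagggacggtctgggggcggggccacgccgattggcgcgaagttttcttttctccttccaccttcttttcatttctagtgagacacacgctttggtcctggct
*CDC6* promoter: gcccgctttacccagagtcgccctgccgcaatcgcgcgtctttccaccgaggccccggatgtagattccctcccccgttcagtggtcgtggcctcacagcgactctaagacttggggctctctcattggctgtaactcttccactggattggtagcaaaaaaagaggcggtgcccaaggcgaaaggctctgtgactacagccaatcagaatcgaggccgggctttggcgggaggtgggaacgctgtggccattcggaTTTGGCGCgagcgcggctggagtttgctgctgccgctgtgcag
*RFC3* promoter: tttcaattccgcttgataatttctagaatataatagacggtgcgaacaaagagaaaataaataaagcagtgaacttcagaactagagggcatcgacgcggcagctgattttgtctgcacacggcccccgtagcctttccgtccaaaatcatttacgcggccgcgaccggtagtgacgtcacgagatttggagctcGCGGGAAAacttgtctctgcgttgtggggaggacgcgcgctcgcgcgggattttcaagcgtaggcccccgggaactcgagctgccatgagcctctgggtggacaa
*MCM6* promoter: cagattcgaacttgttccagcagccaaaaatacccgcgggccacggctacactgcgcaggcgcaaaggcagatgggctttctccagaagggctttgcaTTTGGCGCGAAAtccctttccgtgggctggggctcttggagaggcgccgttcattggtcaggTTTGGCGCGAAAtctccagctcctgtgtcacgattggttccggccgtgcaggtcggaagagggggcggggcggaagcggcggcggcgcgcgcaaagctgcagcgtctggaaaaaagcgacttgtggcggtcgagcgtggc

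Promoters were matched for 39 of the 43 genes, all but *MCM4*, *MCM5*, *GINS4* and *POLD3*. At least 1 of the 4 words lay in 18 of the 39 (46.2%), against 3.3% of all 27305 promoters of the same length and 5.2% of the 11548 promoters of genes that were tested. Because the set was chosen as E2F-driven S phase genes, this excess cannot be read apart from that choice. TTTCCCGC was found in 10 of these promoters, TTTGGCGC in 6, TTTCGCGC in 5 and TTTGCCGC in 0. The 18 were those of *CDC6*, *CDT1*, *ORC3*, *MCM2*, *MCM3*, *MCM6*, *MCM7*, *GINS1*, *GINS2*, *GINS3*, *POLA1*, *POLA2*, *POLE*, *POLE2*, *PCNA*, *RFC3*, *LIG1* and *TYMS*. In *MCM6* 4 matches were counted, in overlapping pairs on opposite strands, because TTTGGCGC and the reverse complement of TTTCGCGC share letters. *ORC1* held none of the 4 words in this window, which lies inside its gene span (chr1:52372829-52409503) and not at the outer end. The window of *PRIM2* (chr6:57314555-57314854), also without a match, likewise lies inside its gene span (chr6:57221540-57646850). Genes with a match had a median log2 fold change of -0.05 (from -0.23 to 0.26) and the 21 without had one of 0.01 (from -0.44 to 0.18), so the ranges overlapped widely. A match describes the letters of the window only.

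Across the set, the levels of replication and dNTP genes in siKIFC1 cells were close to those in control cells. The median log2 fold change (siKIFC1 over control) of the 43 genes was -0.005, with quartiles of -0.11 and 0.05, against 0.01 (-0.12 and 0.13) for all genes tested and 0.01 (-0.094 and 0.105) for the 8983 genes whose mean log2 CPM reached 4. Of the 43, 20 were higher and 23 lower. By role the medians were 0.04 for origin licensing, -0.007 for the MCM helicase, 0.04 for origin firing, -0.02 for the polymerases, -0.02 for the clamp, loader and Okazaki group, and -0.12 for dNTP synthesis. Within the replicate pairs the medians were -0.02, -0.07 and 0.04. In bulk RNA, fewer cells in S phase and less of these transcripts per cell cannot be told apart.

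None of the 43 genes passed an adjusted p of 0.05 (edgeR's quasi-likelihood test, p-values adjusted after Benjamini and Hochberg), where 0.379% of all genes were called lower and 0.332% higher. DESeq2 and limma-voom also called 0. At an unadjusted p under 0.05, 2 genes were lower (*ORC1* and *GINS4*; 4.65%, against 4.53% of all genes) and 1 was higher (*RFC3*; 2.33%, against 4.71%). At that threshold DESeq2 gave 1 lower and 1 higher, against 4.33% and 3.98% of all genes, and limma-voom 3 lower (6.98%) and 1 higher (2.33%), against 4.78% and 4.59%. With the replicate number as a block, 6 were lower (*ORC1*, *CDC6*, *GINS1*, *GINS4*, *POLE* and *RFC1*; 14.0%, against 9.2% of all genes) and 1 was higher (*RFC3*; 2.33%, against 8.51%) at an unadjusted p under 0.05. After adjustment with the block, 1 of the 43 was called lower (*ORC1*, 2.33%) and 0 higher, where 3.06% of all genes were called lower and 2.72% higher. The share of lower genes thus lay on either side of the background, depending on the fit and the threshold. The share of higher genes was below it at each threshold. These shares rest on 0 to 6 of the 43 genes, too few to be read as a difference from the background.

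The intervals show how large a change these libraries leave possible. The 95% interval of the log2 fold change lay within 1.5-fold in either direction for 42 of the 43 genes (97.7%), *ORC1* being the exception. The same held for 65.6% of all genes and for 89.9% of the genes whose mean log2 CPM reached 4. The lowest bound was -0.697 (*ORC1*) and the highest 0.500 (*RFC3*), the standard errors ran from 0.096 to 0.146, and 40 of the 43 intervals held 0.

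Levels that did not overlap between the groups were counted without a test. The 3 siKIFC1 values lay below the 3 control values for 7 genes (*ORC1*, *CDC6*, *MCM3*, *GINS1*, *GINS4*, *LIG1* and *TYMS*; 16.3%, against 7.51% of all genes). They lay above them for 2 (*GMNN* and *RFC3*; 4.65%, against 7.99%). The siKIFC1 library was lower than the control library of the same number in 3 of 3 pairs for 12 genes (27.9%, against 19.4%), adding *CDT1*, *POLA2*, *POLE*, *RFC4* and *FEN1* to those 7. It was higher in 3 of 3 pairs for 6 genes (14.0%, against 19.5%), namely *ORC3*, *GMNN*, *GINS2*, *GINS3*, *POLD2* and *RFC3*.

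**Figure D1:**
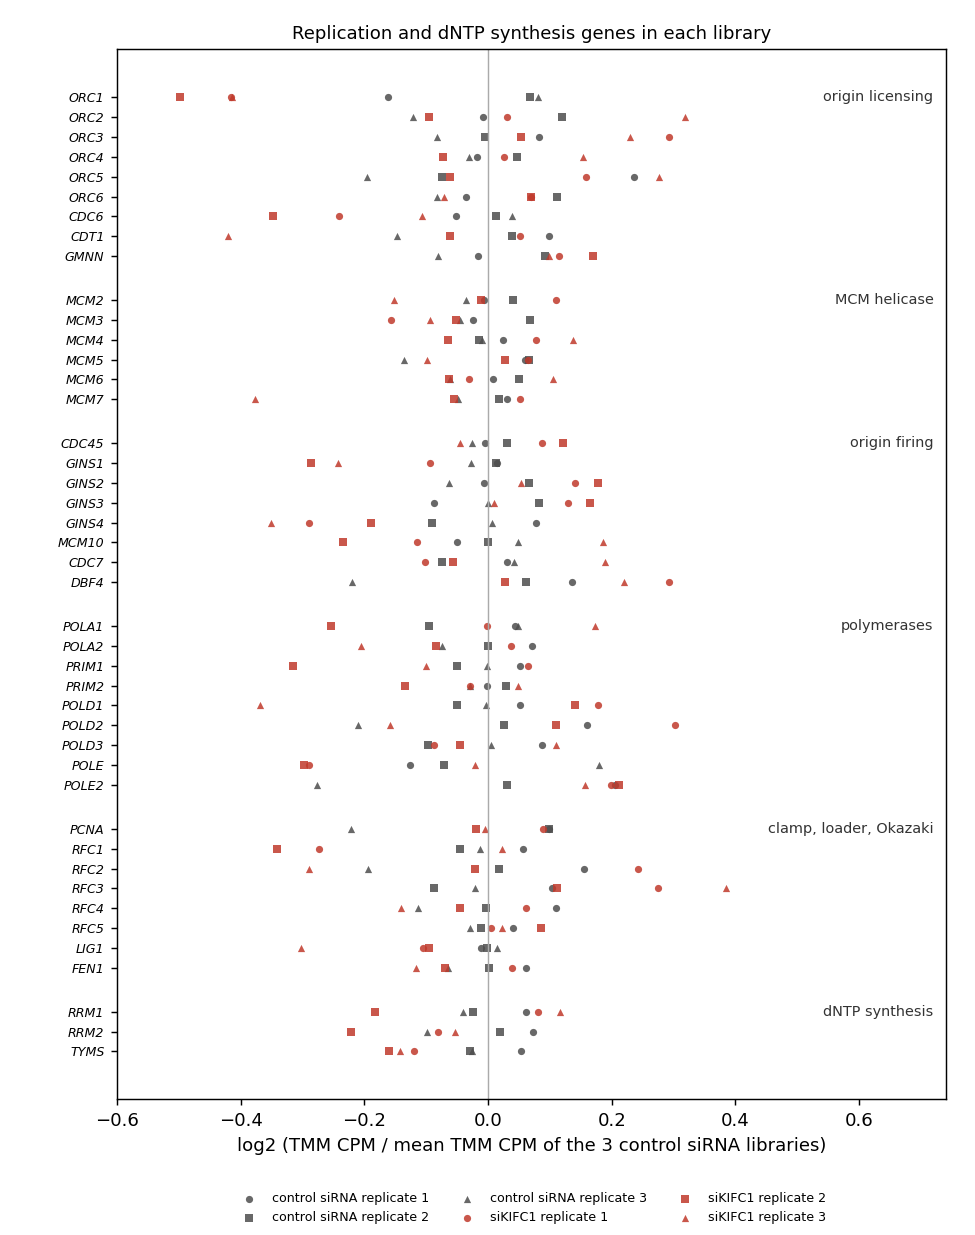
Level of each of the 43 genes in each of the 6 libraries, as log2 of the TMM-scaled CPM over the mean of the 3 control siRNA libraries (x axis), grouped by role (y axis). Grey marks are control and red marks siKIFC1 libraries, and the shape gives the replicate number. The red marks of *ORC1* lie apart to the left of the grey ones, while the marks of most genes overlap.

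**Figure D2:**
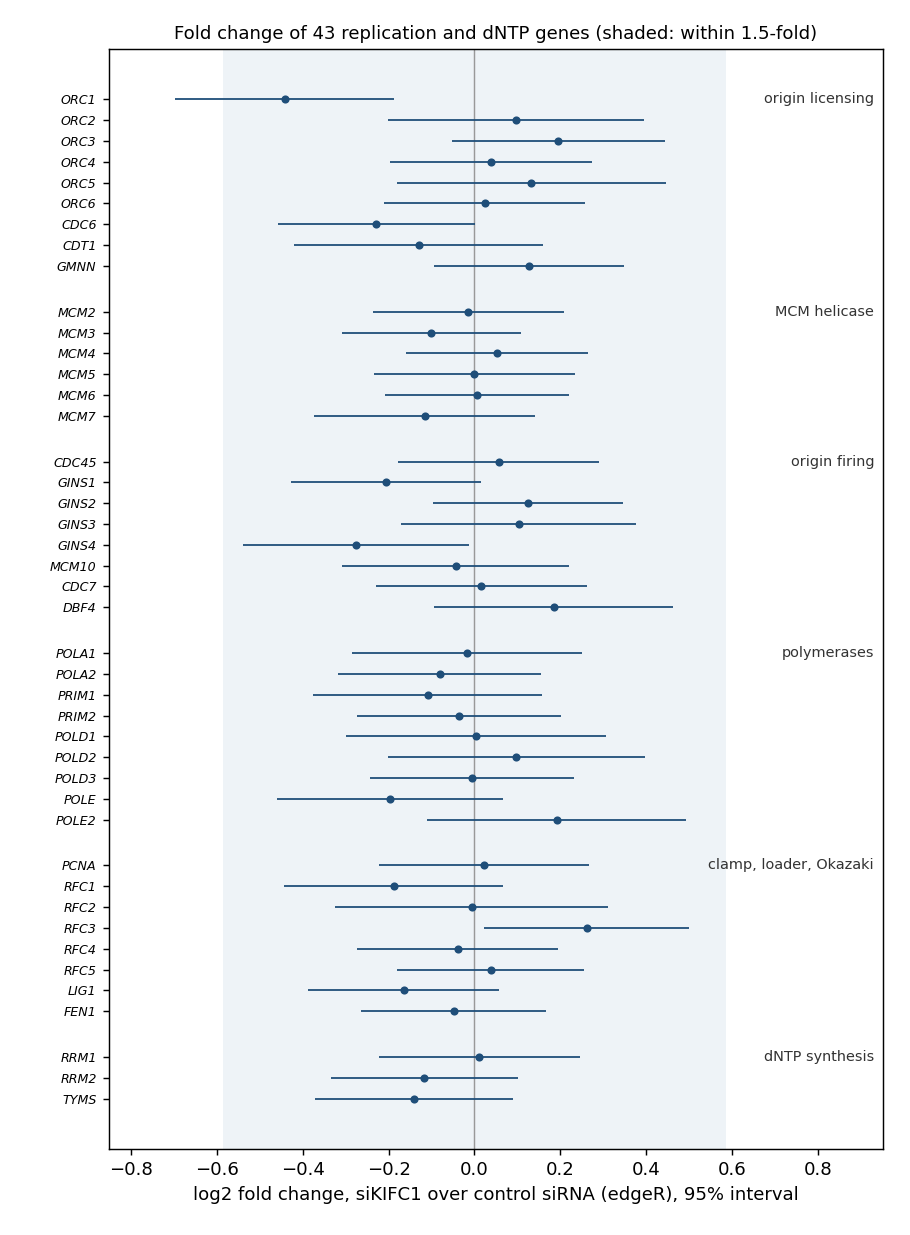
Log2 fold change (siKIFC1 over control siRNA, edgeR) of the 43 genes with its 95% interval (x axis), grouped by role (y axis), with the range within 1.5-fold shaded. The interval of *ORC1* (lower bound -0.697) is the only 1 of the 43 that leaves the shaded range.

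Origin licensing held the largest fold change of the set. *ORC1* (NCBI gene 4998; chr1:52372829-52409503, minus strand) encodes the largest subunit of the origin recognition complex, an AAA+ ATPase. Its level, in CPM scaled by edgeR's trimmed mean of M values (TMM), was 33.3, 39.0 and 39.4 in control replicates 1 to 3 and 27.9, 26.3 and 27.9 in siKIFC1 replicates 1 to 3. The groups did not overlap, and the siKIFC1 values were close to each other. The log2 fold change was -0.44 ± 0.12 (SE), a level 26.4% lower, with an unadjusted p of 0.00264 and an adjusted p of 0.145 in edgeR's quasi-likelihood test. With the replicate block the log2 fold change was also -0.44 and the adjusted p was 0.00839. Without siKIFC1 replicate 3 the log2 fold change was -0.46 with an adjusted p of 0.0422. That fit called 274 of all genes lower and 194 higher, against 56 and 49 with all libraries. Over all alternatives the adjusted p ran from 0.00839 to 0.623, so the call depended on the design, while the log2 fold change ran from -0.52 to -0.40 when each library in turn was left out.

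The other subunits of the complex had fold changes above 0. The log2 fold changes of *ORC2*, *ORC4*, *ORC5* and *ORC6* were 0.10, 0.04, 0.13 and 0.02. *ORC3*, at 42.5, 40.0 and 37.9 CPM in control and 49.2, 41.6 and 47.0 in siKIFC1 libraries, had the highest value of this group, 0.20 ± 0.11, with an adjusted p of 0.688. Its groups overlapped by 1 library. The log2 ratio of *ORC1* to the mean of *ORC2* to *ORC6* (a mean of log2 CPM) was -0.32, -0.08 and 0.08 in the control libraries. It was -0.64, -0.59 and -0.70 in the siKIFC1 libraries, a comparison chosen after the values were seen. The ratio was lower in each siKIFC1 library than in any control library.

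The loading factors and their inhibitor had small fold changes of opposite sign. *CDC6* (NCBI gene 990; chr17:40287879-40304657, plus strand), the ATPase that joins the origin recognition complex, was at 101.1, 105.7 and 107.7 CPM in control and 88.8, 82.4 and 97.4 CPM in siKIFC1 libraries. Its log2 fold change was -0.23 ± 0.11, with an adjusted p of 0.543 (0.136 with the replicate block). *GMNN*, the inhibitor of CDT1, was at 91.4, 98.5 and 87.4 CPM in control and 100.1, 104.0 and 99.0 CPM in siKIFC1 libraries. The lowest siKIFC1 value of *GMNN* was just above the highest control value, and the log2 fold change was 0.13 ± 0.10, with an adjusted p of 0.802. *CDT1*, which brings the MCM complex to origins, had a log2 fold change of -0.13 ± 0.13, with its lowest value, 66.9 CPM, in siKIFC1 replicate 3, and one of -0.004 without that library. The log2 ratio of *CDT1* to *GMNN* was -0.05 ± 0.10 (SD, n = 3) in control and -0.32 ± 0.23 in siKIFC1 libraries, with overlap.

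The 6 MCM genes, whose products form the ring of the replicative helicase, had log2 fold changes from -0.12 to 0.05. *MCM4* (chromosome 8, plus strand), with the highest fold change of the ring, was at 350.5, 341.4 and 342.5 CPM in control and 363.9, 329.6 and 379.4 CPM in siKIFC1 libraries. *MCM7* (chr7:100092728-100101397, minus strand), with the lowest, was at 368.6, 365.3 and 349.4 CPM in control and 374.0, 347.6 and 278.1 CPM in siKIFC1 libraries. For *MCM7*, siKIFC1 replicate 1 was above, replicate 2 just below and replicate 3 well below all control values, and without replicate 3 its log2 fold change was -0.002. *MCM3* was at 263.3, 280.6 and 259.5 CPM in control and 240.1, 258.4 and 251.0 CPM in siKIFC1 libraries. Its groups did not overlap, but the highest siKIFC1 and the lowest control values nearly met. The log2 fold changes were 0.05 ± 0.10 for *MCM4*, -0.12 ± 0.12 for *MCM7* and -0.10 ± 0.10 for *MCM3*, with adjusted p-values of 0.937, 0.867 and 0.85. Those of *MCM2*, *MCM5* and *MCM6* were within 0.014 of 0.

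Among the 8 origin firing genes, subunits of the GINS complex differed in direction. *GINS4* (NCBI gene 84296; chromosome 8, plus strand) was at 24.5, 21.8 and 23.3 CPM in control and 19.0, 20.4 and 18.2 CPM in siKIFC1 libraries. Its log2 fold change was -0.28 ± 0.12, with an unadjusted p of 0.0409 and an adjusted p of 0.503 (0.171 with the replicate block). *GINS1* (chr20:25407673-25448563, plus strand) was at 125.6, 125.4 and 121.9 CPM in control and 116.5, 102.0 and 105.0 CPM in siKIFC1 libraries. Its log2 fold change was -0.21 ± 0.10, with an adjusted p of 0.587 (0.177 with the replicate block). Neither gene overlapped between groups. *GINS2* and *GINS3* had log2 fold changes of 0.13 and 0.10, with overlapping groups. The log2 ratio of *GINS4* to the mean of *GINS2* and *GINS3* (a mean of log2 CPM) was -0.74 ± 0.15 (SD, n = 3) in control and -1.13 ± 0.03 in siKIFC1 libraries. That of *GINS1* to *GINS2* was 0.51 ± 0.05 and 0.18 ± 0.12. Both ratios, chosen after the values were seen, did not overlap between the groups.

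The kinase subunit *DBF4* was at 44.7, 42.5 and 35.0 CPM in control and 49.9, 41.5 and 47.4 CPM in siKIFC1 libraries, the highest fold change of the firing group (0.18 ± 0.13, adjusted p of 0.764). The value was 0.09 without control replicate 3. Its catalytic partner *CDC7*, the helicase cofactor *CDC45* and *MCM10*, which takes part in helicase activation, had log2 fold changes of 0.02, 0.06 and -0.04. The annotation places a long noncoding RNA on the opposite strand over 21.0% of the exon bases of *GINS4*, and another over 23.6% of those of *MCM2*. Whether the counting used strand was not given in the sources used here, so reads of these RNAs cannot be told apart from those of *GINS4* and *MCM2*. A protein-coding gene on the same strand overlaps 16.8% of the exon bases of *POLA2*.

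**Figure D3:**
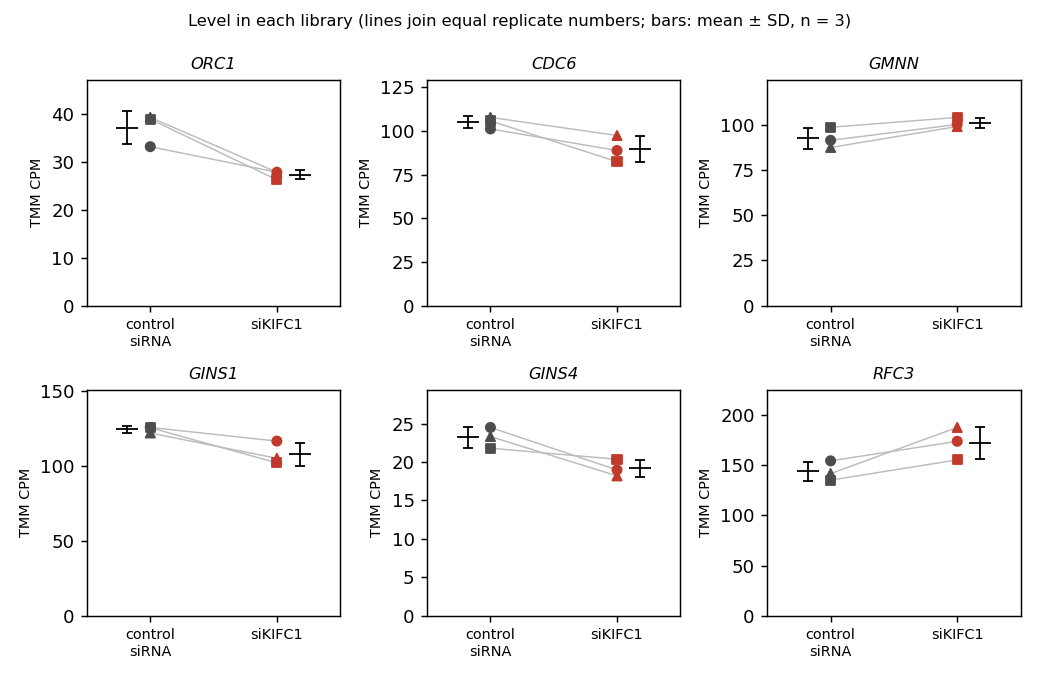
TMM-scaled CPM (y axis, from 0) of *ORC1*, *CDC6*, *GMNN*, *GINS1*, *GINS4* and *RFC3* in the control siRNA and siKIFC1 libraries (x axis), with lines joining libraries of the same replicate number and bars giving mean ± SD (n = 3). The siKIFC1 points lie below the control points for *ORC1*, *CDC6*, *GINS1* and *GINS4* and above them for *GMNN* and *RFC3*.

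No polymerase or primase gene had groups that did not overlap. *POLE*, the catalytic subunit of polymerase ε, had the lowest fold change of the 9, at 169.4, 176.1 and 209.6 CPM in control and 151.4, 150.6 and 182.3 CPM in siKIFC1 libraries (-0.20 ± 0.12, adjusted p of 0.709). It was lower in 3 of 3 pairs, but siKIFC1 replicate 3 lay above control replicates 1 and 2, and the log2 fold change was -0.10 without control replicate 3 and -0.29 without siKIFC1 replicate 3. *POLE2*, the accessory subunit of the same enzyme, had the highest, at 24.3, 21.5 and 17.4 CPM in control and 24.1, 24.4 and 23.5 CPM in siKIFC1 libraries (0.19 ± 0.14, adjusted p of 0.777). The spread of its control libraries was wider than that of its siKIFC1 libraries, and the log2 fold change was 0.07 without control replicate 3 and 0.31 without control replicate 1. The polymerase α-primase genes *POLA1*, *POLA2*, *PRIM1* and *PRIM2* had log2 fold changes of -0.02, -0.08, -0.11 and -0.04, and the polymerase δ genes *POLD1*, *POLD2* and *POLD3* of 0.004, 0.10 and -0.005. *POLD1*, the catalytic subunit of polymerase δ, was at 121.0, 117.9 and 82.9 CPM in siKIFC1 replicates 1 to 3, so that its mean hid a low siKIFC1 replicate 3.

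In the clamp, loader and Okazaki group, *RFC3* (NCBI gene 5983; chr13:33818149-33977377, plus strand), a small subunit of the clamp loader, was at 154.4, 135.2 and 141.7 CPM in control and 173.9, 155.4 and 187.7 CPM in siKIFC1 libraries. The groups did not overlap, but the lowest siKIFC1 value was just above the highest control value. Its log2 fold change, the highest of the 43, was 0.26 ± 0.11, with an unadjusted p of 0.0343 and an adjusted p of 0.475 (0.0633 with the replicate block). *RFC1*, the large subunit, had the lowest of the group, at 111.6, 103.9 and 106.4 CPM in control and 88.8, 84.7 and 108.9 CPM in siKIFC1 libraries (-0.19 ± 0.12, adjusted p of 0.714). Here siKIFC1 replicate 3 was at the control level, and the log2 fold change was -0.31 without that library and -0.12 without siKIFC1 replicate 2. *RFC2*, *RFC4* and *RFC5* had log2 fold changes of -0.006, -0.04 and 0.04. The log2 ratio of *RFC3* to the mean of those 3 subunits (a mean of log2 CPM) was chosen after the values were seen. It was 0.91 ± 0.09 (SD, n = 3) in control and 1.17 ± 0.22 in siKIFC1 libraries, without overlap.

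*LIG1*, the ligase that seals Okazaki fragments, was at 168.8, 169.9 and 171.8 CPM in control and 158.1, 159.2 and 138.0 CPM in siKIFC1 libraries. The control values were close together, all siKIFC1 values were lower, and the log2 fold change was -0.17 ± 0.10 (adjusted p of 0.709), or -0.10 without siKIFC1 replicate 3. The sliding clamp *PCNA* and the flap nuclease *FEN1* had log2 fold changes of 0.02 and -0.05, with overlapping groups.

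The 3 dNTP synthesis genes had log2 fold changes from -0.14 to 0.01. *TYMS*, thymidylate synthase and the target of fluorouracil, was at 40.8, 38.4 and 38.6 CPM in control and 36.1, 35.1 and 35.6 CPM in siKIFC1 libraries. Its siKIFC1 values were all lower, with a log2 fold change of -0.14 ± 0.11 and an adjusted p of 0.788. *RRM1*, the large subunit of ribonucleotide reductase, was at 366.2, 345.0 and 340.9 CPM in control and 370.9, 309.0 and 380.2 CPM in siKIFC1 libraries. The siKIFC1 values of *RRM1* lay on both sides of the control values (0.01 ± 0.11, adjusted p of 0.992). *RRM2*, the regulatory subunit, had a log2 fold change of -0.12 ± 0.10, and the log2 ratio of *RRM2* to *RRM1* was 0.18 ± 0.05 (SD, n = 3) in control and 0.06 ± 0.07 in siKIFC1 libraries, with overlap. *ENOSF1* overlaps 39.9% of the exon bases of *TYMS* on the opposite strand. How reads in that overlap were counted was not given in the sources used here.

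Levels were compared between genes only per length, as TMM CPM per kilobase in control cells, under both the union of all exons and the longest transcript. *PCNA* had the highest level of the set under both lengths, 202.8 ± 24.95 and 209.4 ± 25.8 (SD, n = 3), and *FEN1* followed in its group at 102.8 ± 4.53 and 112.1 ± 4.94. *GINS3* and *GINS4* were the lowest of the firing group, at 3.37 and 4.26 by union and 5.38 and 5.99 by longest transcript. Within the MCM ring, *MCM2*, *MCM3* and *MCM7* did not differ beyond their spread by union length (75.3, 73.5 and 72.8). *MCM6* (67.8), *MCM4* (35.0) and *MCM5* (14.6) followed in this order, and these last 3 kept their ranks by longest transcript. By that length *MCM7*, *MCM2* and *MCM3* were at 117.0 ± 3.33, 103.4 ± 2.73 and 83.5 ± 3.51, apart beyond their SDs. *ORC2* was the lowest of the licensing genes under both lengths, and *GMNN* was the highest, though by union length it was not separated from *CDT1* beyond their SDs (37.3 ± 2.28 and 32.5 ± 2.83). *RRM1* was above *RRM2*, at 82.9 and 43.4 by union and 110.8 and 108.1 by longest transcript, the latter pair within their SDs of 4.29 and 6.50, and *TYMS* was lowest at 16.2 and 24.3. Of the 43 ranks within a role, 27 differed between the 2 lengths, whereas 12 differed between control and siKIFC1 cells by union length.

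**Figure D4:**
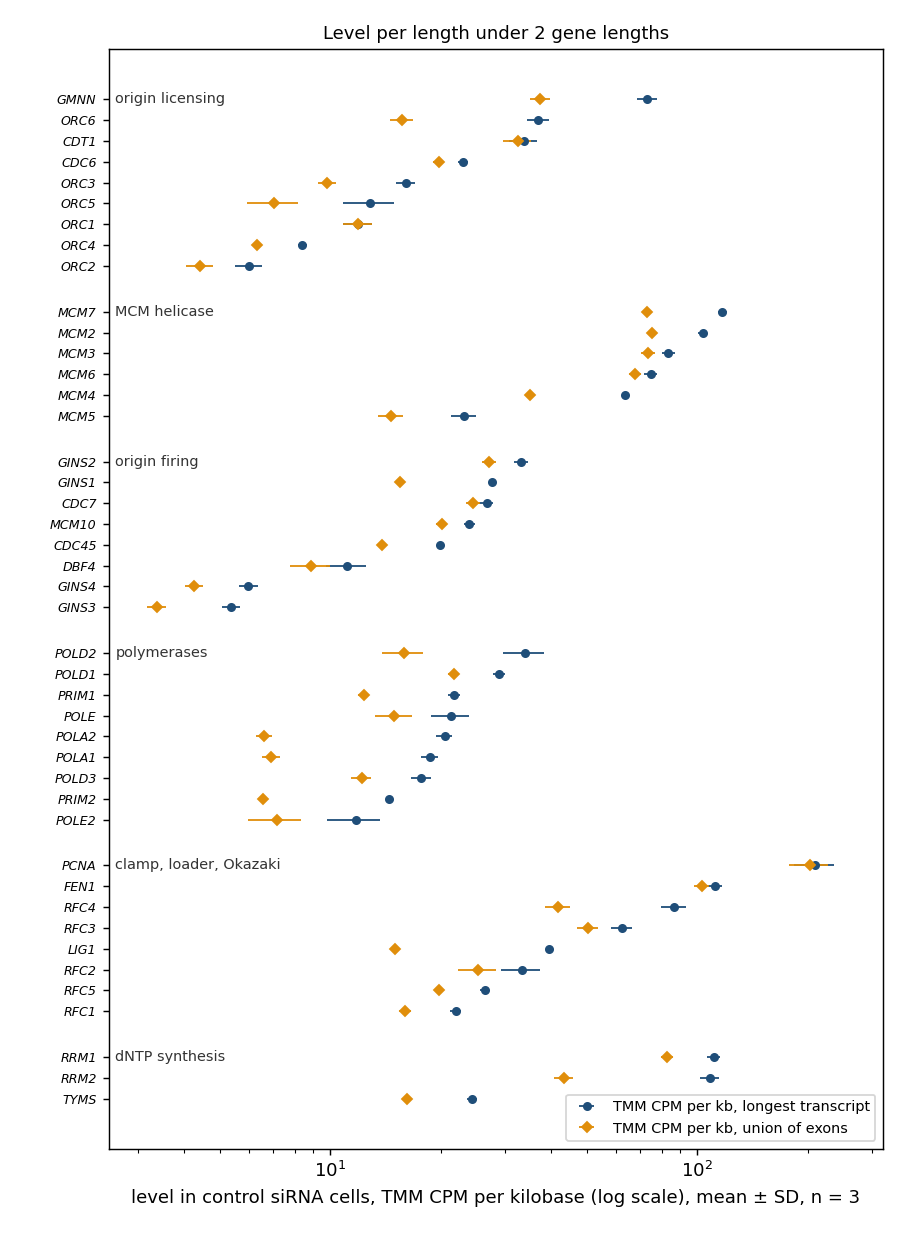
Level of the 43 genes in control siRNA cells, as mean ± SD of TMM CPM per kilobase over 3 libraries (x axis, log scale), by the union of exons and by the longest transcript, grouped by role (y axis). *PCNA* (202.8 by union) stands at the right of the clamp group, and *GINS3* (3.37) and *GINS4* (4.26) at the left of the firing group.

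Part of the spread among the siKIFC1 libraries followed the GC content of the genes. The GC content of the canonical transcripts ran from 37.4% (*ORC4*) to 64.8% (*POLD1*). Across the 43 genes, the deviation of a library from the mean of its group correlated with GC at r = 0.47 (rho = 0.35) in siKIFC1 replicate 1, at 0.67 (0.70) in replicate 2 and at -0.73 (-0.68) in replicate 3. In the control libraries r was -0.13, 0.08 and 0.07. Deviations within a group cancel for each gene, so the correlations of a group's libraries are not independent. Over the 8894 genes of known GC content whose mean log2 CPM reached 4, r was 0.32, 0.65 and -0.69 in the siKIFC1 and -0.09, 0.25 and -0.11 in the control libraries. The 8 genes with a GC content of at least 55% had a median deviation of -0.19 in siKIFC1 replicate 3, and the 23 below 45% one of 0.10. *POLD1*, *CDT1*, *MCM7*, *POLD2* and *RFC2* were among the genes that siKIFC1 replicate 3 held lowest. The fold changes themselves correlated with GC at r = -0.33 (rho = -0.38) over the 43 genes, which share the same 6 libraries. The GC content of *ORC1* was 50.7%, and that of *RFC3*, with the highest fold change, was 38.0%. The part of GC content in the fold changes was not tested.

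**Figure D5:**
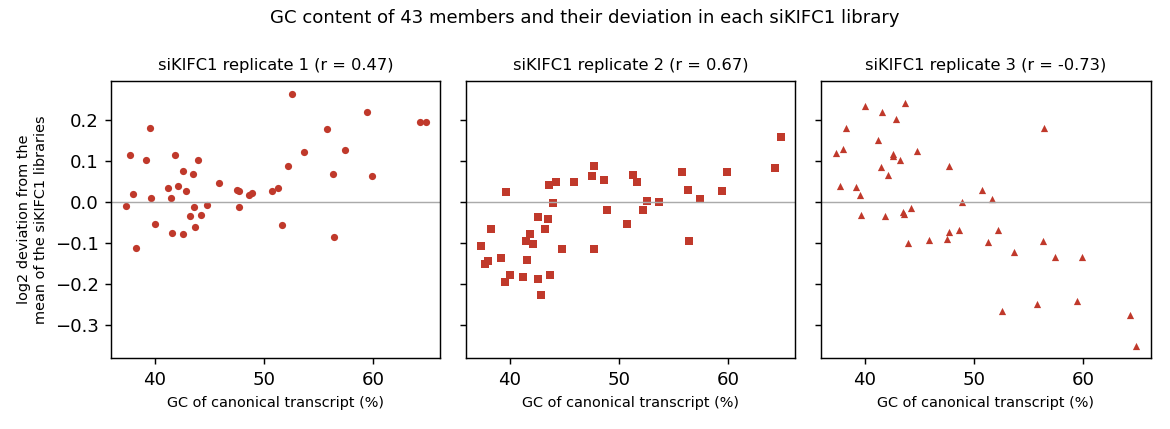
GC content of the canonical transcript in percent (x axis) and log2 deviation from the mean of the siKIFC1 libraries (y axis) for the 43 genes, 1 panel per siKIFC1 library. Points climb with GC in replicate 2 (r = 0.67) and descend with it in replicate 3 (r = -0.73).

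Genes around the replication fork and upstream of it were read from the same fit. In edgeR's quasi-likelihood test, 4.53% of all genes were lower and 4.71% higher at an unadjusted p under 0.05. After adjustment with the replicate block, 3.06% of all genes were called lower and 2.72% higher. Of 36 other replication genes, 0 passed in edgeR's quasi-likelihood test and 1 at an unadjusted p under 0.05, with a median log2 fold change of -0.03 (15 higher, 21 lower). That gene was *CHAF1A*, the large subunit of the chromatin assembly factor that deposits histones behind the fork. It was at 79.7, 71.7 and 72.3 CPM in control and 58.3, 58.8 and 60.5 CPM in siKIFC1 libraries. The groups were clearly apart, with a log2 fold change of -0.33 ± 0.10, an adjusted p of 0.247, and an adjusted p of 0.0279 with the replicate block. Of 31 other nucleotide synthesis genes, 0 passed and 1 had an unadjusted p under 0.05 (*SHMT1*, a folate enzyme, 0.24 ± 0.10, adjusted p of 0.496). Their median was 0.01 (17 higher, 14 lower), and 0 passed with the replicate block.

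Of 31 E2F, RB and G1/S regulators, 29 were tested and 0 passed, with a median of -0.03 (13 higher, 16 lower). After adjustment with the replicate block, 1 was called lower and 1 higher, against 3.06% and 2.72% of all genes. At an unadjusted p under 0.05 there were 4, 3 lower and 1 higher, against 4.53% and 4.71% of all genes. Among these, the activator E2Fs *E2F2* and *E2F3* and the CDK inhibitor *CDKN1A* had log2 fold changes of -0.24, -0.27 and -0.25, with adjusted p-values of 0.475, 0.454 and 0.528. The other was the G1 cyclin *CCND2*, with 3, 11 and 3 counts in control and 15, 27 and 12 counts in siKIFC1 libraries. Its log2 fold change was 1.75 ± 0.55, with an adjusted p of 0.258 (0.0117 with the replicate block). On these low counts it was 2.69 without control replicate 2 and 1.31 without siKIFC1 replicate 2. *E2F1* was at 165.8, 205.7 and 174.5 CPM in control and 141.8, 193.8 and 112.2 CPM in siKIFC1 libraries. The groups overlapped, yet each siKIFC1 library was below the control library of its number. The log2 fold change of *E2F1* was -0.29 ± 0.17 (adjusted p of 0.697), and -0.31 with an adjusted p of 0.0402 with the replicate block. It was -0.12 without siKIFC1 replicate 3, -0.19 without control replicate 2 and -0.52 without siKIFC1 replicate 2.

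Of 10 G2/M and proliferation genes, 0 passed and 0 had an unadjusted p under 0.05, with a median of 0.05 (8 higher, 2 lower). After adjustment with the replicate block, 1 was called lower and 0 higher, against 3.06% and 2.72% of all genes. *MKI67*, the gene of the Ki-67 proliferation marker, was at 464.6, 411.6 and 556.7 CPM in control and 328.4, 318.8 and 514.6 CPM in siKIFC1 libraries. Replicate 3 was high in both groups, and each siKIFC1 library was below the control library of its number. The log2 fold change was -0.30 ± 0.18 (adjusted p of 0.689), and -0.33 with an adjusted p of 0.0093 with the replicate block. When each library in turn was left out it ran from -0.56 (without siKIFC1 replicate 3) to -0.18 (without control replicate 3). It was -0.20 without siKIFC1 replicate 1 and -0.19 without siKIFC1 replicate 2. Without siKIFC1 replicate 3 the adjusted p was 0.019. That fit called 274 of all genes lower and 194 higher, against 56 and 49 with all libraries.

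The 3′ UTRs of the genes were read for the words GAGATCT and GCAACC, found in an earlier analysis of these same libraries. GAGATCT lay in the 3′ UTR of 3 of the 43 genes (7.0%; *GINS4*, *POLA2* and *RFC1*), against 9.0% of the 12972 genes tested that have a 3′ UTR. The median log2 fold change of these 3 genes was -0.19, and that of the 1163 genes with the word was -0.11. GCAACC lay in 7 of the 43 (16.3%; *ORC2*, *MCM7*, *MCM10*, *GINS3*, *GINS4*, *POLD3* and *RFC1*), against 23.2% of genes, with medians of -0.04 and 0.03. *ORC1*, with a 3′ UTR of 352 bases, held neither word. The GAGATCT site of *RFC1*, in capitals with its flanks, is shown as the context of the word.
*RFC1* site: tttgcccctgaGAGATCTagtcctgtcct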

How the data were processed

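RNA from 3 control siRNA and 3 siKIFC1 samples, labelled as biological replicates, was sequenced. Per the labels and the study's methods, the authors aligned reads to GRCh38 with HISAT2 2.2.1 and deposited whole-number counts per NCBI gene from featureCounts 2.0.8. Their notes also name DESeq2 1.46.0 and R 4.4.2. A symbol was found for 27745 of the 28395 gene IDs; those without one took 0.0618% of counts. Groups came from the sample titles.

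The test was edgeR 4.0.16 (R 4.3.3) with filterByExpr by group, TMM scaling and a robust quasi-likelihood fit. P-values were adjusted by Benjamini-Hochberg over 14776 genes, with a threshold of 0.05. The biological coefficient of variation was 13.1%. Levels are TMM-scaled CPM, SE is the absolute log2 fold change over the square root of F, and intervals are 95%. With 3 libraries a group no exact permutation test can reach the threshold, so none was run. Alternatives used limma 3.58.1, DESeq2 1.42.0, other scalings and filters, the replicate block and each library left out. Simulated counts were tested first: of genes changed by a log2 fold of 1, 80.4% were called in the right direction, and of genes changed 1.5-fold, 35.2%.

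Both groups share replicate numbers. After removal of group means, equal numbers correlated at 0.436, 0.352 and 0.42 across 12897 genes and unequal ones at -0.375 to -0.0463, so the numbers were taken to pair the samples. Deviations within a group cancel, so the unequal values are partly fixed by the equal ones. The labels do not say what a number shares.

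Members and lists were chosen with earlier results of these data known. Values in every library are given for genes with an unadjusted p under 0.05, an adjusted p under 0.05 with the block, groups that do not overlap, or the highest or lowest log2 fold change of their role. Others were named after their values were seen. Gene coordinates are from RefSeq, strands and lengths from GENCODE 44 on GRCh38, and promoters from RefSeq (GRCh38.p14). Figures were drawn with matplotlib 3.10.9, and tables made with pandas 2.3.3, numpy 2.4.6 and scipy 1.17.1 in Python 3.11.15. Sequences of the other 3′ UTR sites are not reported here.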

Additional observations from a re-analysis of the deposited data

How the results depend on the processing

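Over all genes, 56 were lower and 49 higher at an adjusted p under 0.05. DESeq2 gave 145 and 125, no filter on low counts 144 and 121, and the replicate block 452 and 402, and leaving out 1 library at a time gave 15 to 274 and 9 to 194. Of the 43 genes 0 were called, against 1 lower (*ORC1*) with the replicate block and 0 to 1 when 1 library was left out, with 0 higher under all alternatives. At an unadjusted p under 0.05, 2 were lower and 1 higher, against 1 and 1 with DESeq2 and 6 and 1 with the replicate block. Of all genes, 4.53% were lower and 4.71% higher at that threshold, 4.33% and 3.98% with DESeq2, and 9.2% and 8.51% with the block. Of the supporting genes 0 were called, against 1 with no filter, 4 with the replicate block and 0 to 3 when 1 library was left out. With the block, 3.06% of all genes were called lower and 2.72% higher. *RRM1* changed sign, to -0.001, when only library size was used for scaling, and ran from -0.046 to 0.093 when 1 library was left out. The number of genes whose interval lay within 1.5-fold was 42 under every alternative but leaving out 1 library, which gave 38 to 42. Of the 43 ranks by length, 16 were the same by longest transcript. The cause of these shifts was not tested. The replicate block changed no other call among the genes named than those given in the report. Each of the 43 genes had at least 270 counts in each library, at which counting error is smaller than the biological coefficient of variation of 13.1%.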
